A study of Mus musculus with 3 samples.

Results

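The 8 keratin genes described here, Krt5, Krt7, Krt8, Krt14, Krt15, Krt17, Krt18 and Krt19, form the filaments of simple and basal epithelium and were followed through 3 mouse mammary tumours. They are 8 of the 12393 genes that the array names. Their members were every probe set whose platform annotation gave exactly 1 of these genes, which made 13 of the 22626 probe sets other than controls (3 for Krt8, 3 for Krt14, 2 for Krt17 and 1 for each other gene). A probe set is a group of short oligonucleotides on the array that together report a transcript, and each was kept apart here. Another probe set was annotated to both Krt14 and Krt17. It read 7, 13 and 14 in tumours 1, 2 and 3 and was left out. Probe sets were picked by gene name and by no measured value. The genes themselves were chosen with earlier results of these data known.

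All 3 tumours came from female NMRI mice with the WAP-SVT/t transgene, in which the whey acidic protein (Wap) promoter drives SV40 T and t antigens in mammary gland epithelium. The design text names line 8 and a comparison with human breast tumours, which are not analysed here, and it gives no age of the animals. They form 1 group with 1 array per tumour and without control tissue, so every comparison is between tumours, the SD is the spread over the 3 tumours, and no p-value exists. The labels do not say whether the tumours came from separate animals, and tumours 1 and 2 share the first number of their titles. Whole tumours were measured, so fewer cells of a type and less RNA per cell cannot be told apart.

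Keratins are the intermediate filament proteins of epithelial cells. They assemble only as pairs of a type II keratin (Krt5, Krt7 and Krt8) with a type I keratin (Krt14, Krt15, Krt17, Krt18 and Krt19). In the mammary gland Krt8 and Krt18, often with Krt7 and Krt19, fill the luminal cells that line ducts and make milk, whereas Krt5, Krt14 and Krt17 mark the basal and myoepithelial layer around them. Krt15 is a keratin of basal cells in stratified epithelia.

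Promoter sequences are shown for Krt8 and Krt18, partner genes that differed little between the tumours, and for Krt7, a gene of the same chromosome that differed widely. In the RefSeq gene order Krt8 and Krt18 are adjacent protein-coding genes on chromosome 15, and Krt7 lies 24 genes before Krt8. Each sequence runs 5′ to 3′ over the 250 bases before and the 50 bases after the gene's start (RefSeq, build GRCm38.p6). Capitals mark matches, on either strand, of the TATA motif TATAAA, of GGGCGG and of GCCNNNGGC, a form of the AP-2 site. Krt8 lies at chr15:102004293-102004592 on the minus strand, Krt18 at chr15:102027966-102028265 on the plus strand and Krt7 at chr15:101412153-101412452 on the plus strand.
Krt8: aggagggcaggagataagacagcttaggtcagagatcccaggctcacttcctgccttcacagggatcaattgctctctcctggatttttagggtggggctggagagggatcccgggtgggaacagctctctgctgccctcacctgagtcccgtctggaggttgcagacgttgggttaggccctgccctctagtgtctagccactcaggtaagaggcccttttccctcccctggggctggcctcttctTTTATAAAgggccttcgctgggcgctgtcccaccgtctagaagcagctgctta
Krt18: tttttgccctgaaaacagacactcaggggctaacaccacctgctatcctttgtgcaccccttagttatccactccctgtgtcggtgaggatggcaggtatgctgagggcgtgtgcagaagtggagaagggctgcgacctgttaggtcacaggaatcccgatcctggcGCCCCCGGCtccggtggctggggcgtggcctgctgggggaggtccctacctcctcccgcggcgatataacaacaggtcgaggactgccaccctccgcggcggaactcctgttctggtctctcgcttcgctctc
Krt7: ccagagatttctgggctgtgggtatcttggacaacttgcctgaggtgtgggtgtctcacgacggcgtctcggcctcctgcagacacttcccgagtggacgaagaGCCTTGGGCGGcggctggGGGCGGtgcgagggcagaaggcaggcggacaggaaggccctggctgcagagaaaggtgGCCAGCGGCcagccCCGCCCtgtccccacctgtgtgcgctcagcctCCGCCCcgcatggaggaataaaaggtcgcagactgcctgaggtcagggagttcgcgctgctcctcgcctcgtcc
The Krt8 window held TATAAA in 2 overlapping matches on opposite strands and neither other motif. The Krt18 window held 1 GCCNNNGGC and neither other motif. The Krt7 window held 4 GGGCGG and 2 GCCNNNGGC, of which 1 of each overlap, and no TATAAA. Of all 32851 promoter windows in the RefSeq table, 13.6% held TATAAA, 35.7% GGGCGG and 16.6% GCCNNNGGC. The windows of Krt5 and Krt14, with the same source, held 0 matches of any of the 3 motifs. Krt15, Krt17 and Krt19 had no entry in the promoter table. A match describes the letters and is no evidence of binding.

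The simple-epithelium keratins were far brighter than the low-signal floor in every tumour and the basal keratins were not. The floor is the median of the mean levels of all probe sets, a level of 7.40 or an intensity of 119. A level is log2(intensity + 50) after quantile normalization, which gives the 3 arrays the same distribution, and a fold difference on this scale understates the change of dim probe sets. Of the 13 probe sets 6 passed the floor, all of them from Krt7, Krt8, Krt18 and Krt19. The other 7, which were all those of Krt5, Krt14, Krt15 and Krt17, had means below it. Whether such dim signals exceed background cannot be said, since no detection call was used.

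**Figure D1:**
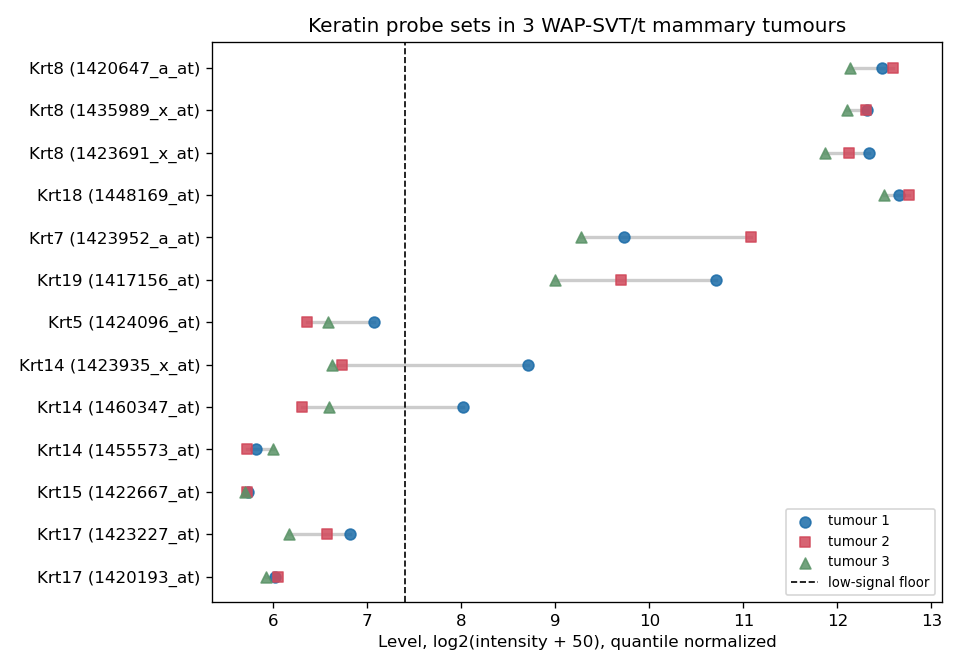
Level of each keratin probe set (log2(intensity + 50), quantile normalized) in tumours 1, 2 and 3, with a grey bar from the lowest to the highest tumour and the low-signal floor of 7.40 as a dashed line. The 6 probe sets of Krt8, Krt18, Krt7 and Krt19 lie right of the floor in every tumour, and of the others only 2 Krt14 probe sets cross it, in tumour 1.

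Between the highest and the lowest tumour, 4 of the 13 probe sets were at least 2-fold apart, beside 17.0% of all probe sets. These were the probe sets of Krt7 and Krt19 and 2 of the 3 of Krt14. Only the first 2 passed the floor, so the count was 2 of 6 there, beside 26.9% of all probe sets past it. The median range over the tumours was 0.47 (log2) for the 13 probe sets and 0.48 for all probe sets. It was 0.47 for the 6 past the floor, beside 0.68 for all those past it. The wide differences were those of 3 genes, and without tumour 1 the count was 1, Krt7.

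By pairs of tumours, 4 member probe sets were at least 2-fold apart between tumours 1 and 2, beside 4.96% of all. These were the 2 of Krt14 and that of Krt19, higher in tumour 1, and that of Krt7, higher in tumour 2. Between tumours 1 and 3 the count was 3, all higher in tumour 1 (Krt14, Krt14 and Krt19), beside 9.15% of all. Between tumours 2 and 3 it was 1, Krt7, beside 11.4%. None of the 13 probe sets was 2-fold higher in tumour 3 than in another tumour. Tumour 1 was the highest for 8 of 13 probe sets, beside 30.2% of all, and tumour 3 the lowest for 10, beside 36.9%. The 8 include probe sets below the floor, among them that of Krt15 (3, 3 and 2). Of the 6 past the floor, tumour 1 was the highest for 3 and tumour 2 for 3. All 6 probe sets past the floor were lowest in tumour 3, beside 38.7%, although with array medians subtracted in place of quantile normalization 1 of the 3 for Krt8 was lowest in tumour 2. The probe sets of a gene share its transcript and are not independent.

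Krt8 and Krt18, the obligate pair of simple epithelium, were strong and nearly level in all 3 tumours. The leading Krt8 probe set, that with the highest mean level (1420647_a_at), had intensities of 5607, 5714 and 4770 in tumours 1, 2 and 3, a level of 12.40 ± 0.24 (SD, n = 3). Tumours 1 and 2 were close and tumour 3 was the lowest, with a range of 1.37-fold. The second Krt8 probe set (1423691_x_at) read 5036, 4203 and 3967 and had a 1.39-fold range. The third (1435989_x_at) read 4955, 4672 and 4666, a 1.16-fold range. The 3 probe sets of Krt8 put tumour 3 lowest but did not agree on whether tumour 1 or 2 was highest. An x in a probe set's name marks probes that can bind related transcripts, and an a marks probes shared by transcripts of 1 gene.

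Krt18 (1448169_at) read 6457, 6414 and 6145, a level of 12.64 ± 0.13 (SD, n = 3) and a range of 1.20-fold. It was highest in tumour 2 after quantile normalization and in tumour 1 as deposited, so the order of these tumours is not settled. Of all probe sets past the floor, 89.5% had a range at least as wide as that of Krt18 and 72.0% one at least as wide as that of the leading Krt8 probe set. The brightest Krt18 value was 57.0% of its array's maximum and the brightest Krt8 value 49.4%. Whether signals this bright were compressed was not tested.

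Krt7 and Krt19, which join Krt8 and Krt18 in ductal and luminal epithelium, differed between the tumours and in different directions. Krt7 (1423952_a_at), a type II keratin, read 774, 2065 and 563 in tumours 1, 2 and 3. Tumour 2 stood alone, 2.54-fold above tumour 1 and 3.50-fold above tumour 3, while tumours 1 and 3 were 1.37-fold apart. The level was 10.03 ± 0.94 (SD, n = 3), and 5.28% of all probe sets past the floor had as wide a range. Without tumour 2 its range was 0.46 (log2) in place of 1.81.

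Krt19 (1417156_at), the smallest keratin, which lacks the tail domain of the others, read 1590, 803 and 454. Here tumour 1 was the highest, 2.02-fold above tumour 2, and tumour 2 was 1.63-fold above tumour 3, which gave a stepwise 3.29-fold range. The level was 9.80 ± 0.86 (SD, n = 3), and 6.13% of probe sets past the floor had as wide a range. Without tumour 1 the range was 0.71 (log2) in place of 1.72. In RefSeq order Krt15 is the next gene before Krt19 on chromosome 11, and it read only 3, 3 and 2 (1422667_at).

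**Figure D2:**
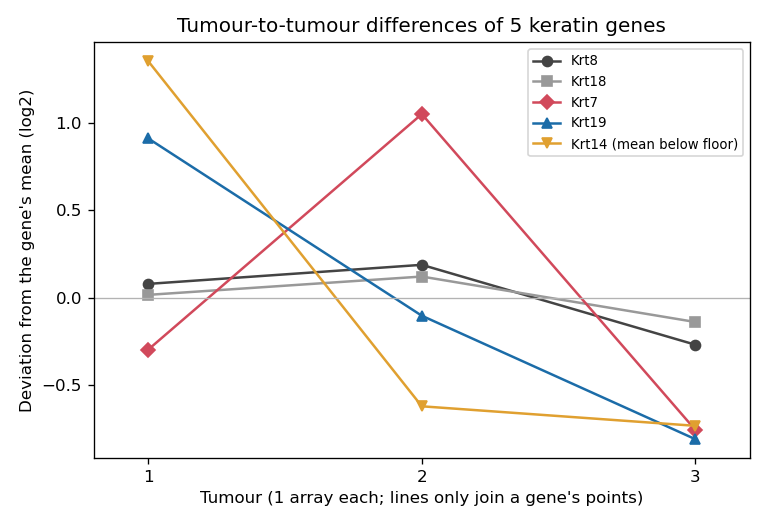
Deviation of each gene's level from its own mean over the 3 tumours (log2) for the leading probe sets of Krt8, Krt18, Krt7, Krt19 and Krt14. Krt8 and Krt18 stay close to 0, Krt7 peaks in tumour 2, Krt19 steps down from tumour 1 to tumour 3, and Krt14, whose mean is below the floor, stands out in tumour 1 alone.

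Because filaments need a type II and a type I partner, the differences between tumours were set side by side for partner genes. Levels of different probe sets were not compared. Between tumours 1 and 2 the log2 difference was -0.11 for Krt8 and -0.10 for Krt18. For tumour 1 minus tumour 3 the values were 0.35 for Krt8 and 0.16 for Krt18. For tumour 2 minus tumour 3 Krt8 had 0.46 and Krt18 had 0.26. These partners moved within 0.20 (log2) of each other in every pair of tumours. Krt7 and Krt19 did not. Between tumours 1 and 2 Krt7 differed by -1.35 and Krt19 by 1.01, opposite in sign and 2.36 apart. For tumour 1 minus tumour 3 Krt7 had 0.46 and Krt19 had 1.72. For tumour 2 minus tumour 3 Krt7 had 1.81 and Krt19 had 0.71. Krt19 also departed from Krt8, by 1.12 between tumours 1 and 2 and by 1.37 between tumours 1 and 3, where it was the more raised in tumour 1. Between tumours 2 and 3 Krt8 and Krt19 were 0.25 apart after quantile normalization, close to the spacing of Krt8 and Krt18. They were 0.50 apart as deposited or with array medians subtracted, and 0.40 with averaged probe sets. Under these 3 settings Krt8 and Krt18 were 0.20, 0.20 and 0.049 apart. The partners of Krt5 were all below the floor and are not set side by side.

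**Figure D3:**
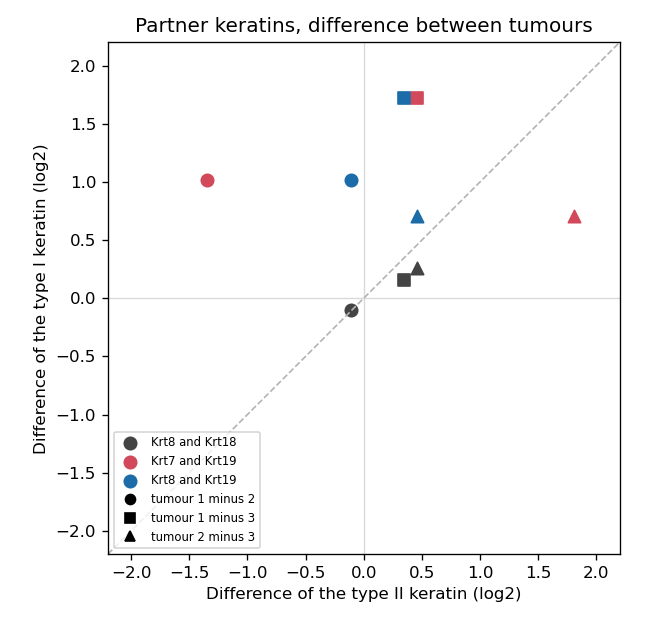
Log2 difference between 2 tumours of the type II keratin (x axis) against that of its type I partner (y axis), for 3 partnerships and 3 pairs of tumours, with the line of equal difference dashed. The 3 points of Krt8 and Krt18 lie near the line, while those of Krt7 and Krt19 lie 2.36, 1.26 and 1.10 from equal differences, on both sides of the line.

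Of the basal keratins only Krt14 rose above the floor in any tumour, and only in tumour 1. Its leading probe set (1423935_x_at) read 358, 59 and 50 in tumours 1, 2 and 3, with tumour 1 3.93-fold above tumour 2 and 4.24-fold above tumour 3. A second probe set (1460347_at) read 203, 30 and 48, also alone in tumour 1, 3.27-fold above tumour 2 and 2.67-fold above tumour 3. The third (1455573_at) read 6, 3 and 14 and did not repeat the difference at its dim level. Without tumour 1 the ranges of the first and second were 0.11 and 0.29 (log2). Since tumours 2 and 3 were below the floor, these folds depend on the offset, and the range of the leading probe set was 2.57 (log2) with an offset of 16 and 1.66 with 100.

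Krt5, the type II partner of Krt14, read 81, 33 and 47 (1424096_at) and stayed below the floor in every tumour, brightest in tumour 1. Krt17, a keratin of basal cells and of injured epithelium, read 59, 47 and 23 on 1 probe set (1423227_at) and 14, 17 and 11 on the other (1420193_at). These values gave no ordering that both Krt17 probe sets shared beyond tumour 3 being the dimmest. With an offset of 16 the ranges of Krt5 and of the first Krt17 probe set were 1.07 and 1.04 (log2), past 2-fold, in place of 0.72 and 0.64.

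Of the 12393 genes that the array names, 6952 passed the floor. The array held 32 further keratin genes on 36 probe sets, and 30 of these keratin genes were below it. The exceptions were Krt10, a keratin of differentiating epidermis, and Krt23, a type I keratin, both highest in tumour 3, as were 30.3% of all genes past the floor. Krt10 read 159, 127 and 326 with a range of 2.23-fold, and Krt23 read 85, 125 and 415 with one of 3.40-fold. Unlike the members past the floor, Krt10 was not lowest in tumour 3. Krt23 was at levels of 7.11 and 7.41 in tumours 1 and 2, so its mean passed the floor only through tumour 3. It therefore had to be highest there. Among the dim keratins the highest single value was that of Krt6a, a keratin of injured and hyperproliferative epithelium, in tumour 1, although Krt80 had a higher mean level (95, 89 and 73). The 3 probe sets of Krt6a read 139, 20 and 40, 74, 27 and 10, and 49, 3 and 1, each brightest in tumour 1, as were both brighter probe sets of Krt14. Of 24 listed genes of squamous differentiation, 21 were on the array and 3 passed the floor. These were Cstb, a protease inhibitor gene (4143, 3431 and 3964), Krt10, and Ly6d, a surface antigen of keratinocytes (65, 91 and 294), which passed only through tumour 3. Ivl and Krt13, markers of squamous epithelium, read at most 3 and 5, and the cornified envelope gene Lor read 52, 47 and 117. The transglutaminase gene Tgm1 read 206, 130 and 48, brightest in tumour 1.

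Desmosome and plakin genes, which tie keratin filaments to cell contacts, were next examined. Of 14 such genes past the floor 6 were at least 2-fold apart, beside 24.8% of all genes past it, and their median range was 0.84 (log2) beside 0.66. Tumour 2 was the highest for 7 of the 14, beside 39.2% of all genes past the floor, and the lowest for 0, beside 27.2%. The desmosomal gene Pkp1 read 333, 1737 and 1045, a 4.64-fold range with tumour 1 lowest. The plakin gene Dst, whose epithelial form anchors keratins at hemidesmosomes, read 1191, 2258 and 483, a 4.39-fold range, which was 0.96 (log2) in place of 2.13 with the mean of its probe sets. The plakoglobin gene Jup read 979, 1544 and 589 and the plakophilin gene Pkp3 read 509, 960 and 305. Dst, Jup and Pkp3 had their peak in tumour 2 and their low point in tumour 3, as Krt7 had. The plakin gene Eppk1 read 1343, 1143 and 520, with tumour 1 highest as for Krt19, and the desmocollin gene Dsc2 read 66, 134 and 212. Dsc2 was at levels of 6.90 and 7.48 in tumours 1 and 2, so its mean passed the floor only through tumour 3. Pkp2 differed least, 1.12-fold. Without tumour 3 the count of 2-fold genes was 1.

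Among other intermediate filament genes 5 of 12 passed the floor, beside 6952 of all 12393 genes. Of the 5, 2 were at least 2-fold apart, beside 24.8% of all genes past it. Their median range of 0.69 was close to the 0.66 of all. Vim, the filament of mesenchymal cells, read 2100, 3325 and 2342, highest in tumour 2. The lamin gene Lmnb1 read 378, 306 and 1019 and the filament gene Nes 342, 579 and 226, while Lmnb2 differed 1.26-fold. The count was 0 without tumour 3, and 1 without tumour 2 or with averaged probe sets.

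Of the transcription factors known to act on keratin genes, 16 of 25 passed the floor, beside 6952 of all 12393 genes. Of the 16, 5 were at least 2-fold apart, beside 24.8% of all genes past it, with a median range of 0.82 beside 0.66. Trp63, the master factor of basal epithelium, read 31, 27 and 16, below the floor in every tumour as were Krt5 and Krt17. Klf4 read 106, 195 and 707 and Jun 532, 823 and 1696, both highest in tumour 3, where Krt10 and Krt23 were also highest. Elf3 differed least, with 566, 598 and 593. The 2-fold count was 3 without tumour 2 and 1 without tumour 3.

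Markers of the labelled tissue were examined next. Of 18 luminal markers on the array 15 passed the floor, beside 6952 of all 12393 genes. Of the 15, 7 were at least 2-fold apart, beside 24.8% of all genes past it, with a median range of 0.92 beside 0.66. The adhesion gene Epcam read 4156, 6060 and 6050, lowest in tumour 1. The E-cadherin gene Cdh1 read 1313, 1403 and 2793, highest in tumour 3, where Krt7 and Krt19 were lowest. The widest ranges were those of Muc1 (1125, 1904 and 56) and Cldn4 (1788, 669 and 111), both lowest in tumour 3. Most of the list did not share this low point. After quantile normalization 3 of the 15 markers were lowest in tumour 3, beside 44.2% of all genes past the floor, and 9 in tumour 2, beside 27.2%. Among the 9, Elf3 (566, 598 and 593) was lowest in tumour 1 as deposited and Ltf (2142, 584 and 577) in tumour 3. Tumour 3 was the highest for 6 of the 15, beside 30.3%. Among the 6, Elf3 and Wfdc18 (9768, 1467 and 9761) were not highest there as deposited. The hormone receptor genes Esr1 and Pgr read at most 16 and 8. The luminal count was 4 without any 1 tumour.

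Of 16 basal and myoepithelial markers on the array 9 passed the floor, a share close to the 6952 of all 12393 genes. Lama3 and Egfr passed only through tumour 2, so they had to be highest there. With both included, 5 of the 9 were at least 2-fold apart (24.8% of all genes past the floor) and the median range was 1.06 (0.66 for all). Tumour 2 was the highest for 7 of the 9, Lama3 and Egfr among them, beside 39.2% of all genes past the floor, and tumour 3 the lowest for 8, beside 44.2%. The laminin genes Lamb3 (306, 1309 and 151) and Lama3 (96, 345 and 37) had the widest ranges. Itga6, an integrin of hemidesmosomes, read 1821, 2195 and 1571, and its range was 0.87 (log2) in place of 0.55 with the mean of its probe sets. Krt14 had its bright value in tumour 1 instead, where the smooth muscle gene Tagln also peaked (1301, 826 and 397). The count of 2-fold basal markers was 2 without tumour 3, 1 without tumour 2, 3 with an offset of 100 or with averaged probe sets, and 2 with a floor at the 75th percentile. The summed intensity of the basal list was 6447, 8206 and 4381 in tumours 1, 2 and 3, and that of the luminal list 41922, 28746 and 39135. Much of the lower luminal sum in tumour 2 was that of Wfdc18 alone, a milk whey protein gene that read 9768, 1467 and 9761. By gene, 9 of the 15 luminal markers past the floor were lowest in tumour 2 after quantile normalization, beside 27.2% of all genes past it. Elf3 and Ltf were among the 9 but were not lowest there as deposited.

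**Figure D4:**
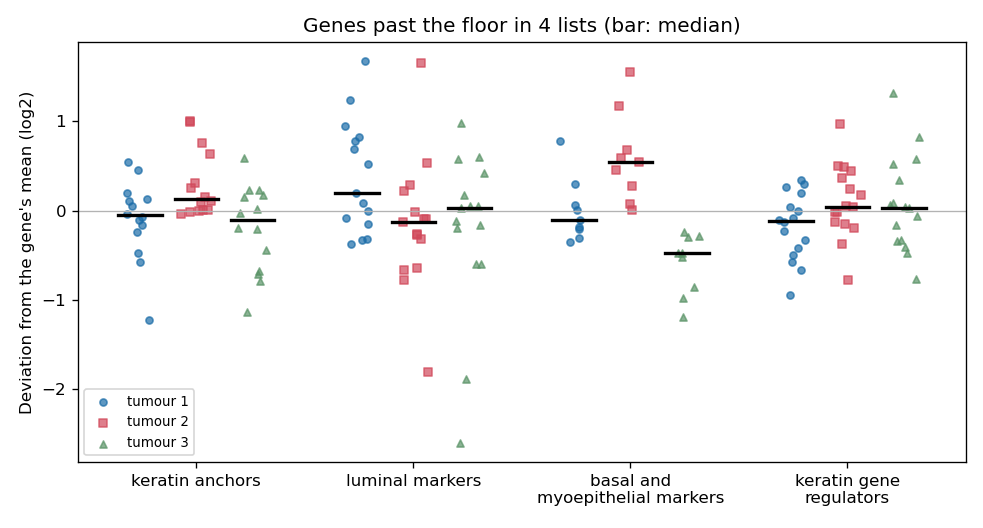
Deviation of each gene from its own mean over the 3 tumours (log2) for genes past the floor in the lists of keratin anchors (14 genes), luminal markers (15), basal and myoepithelial markers (9) and keratin gene regulators (16), with the median as a bar. The basal markers have medians of -0.11, 0.55 and -0.48 in tumours 1, 2 and 3, and the other lists lie between -0.13 and 0.20.

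By a fixed measure of likeness, the Euclidean distance between deviations from the gene's mean over the 3 tumours, the genes past the floor nearest to Krt14 were Ltf, Tspan8, Bik, Epsti1 and Psmb10. Krt14 itself was below the floor in tumours 2 and 3 and its differences depend on the offset, so these names carry no rank. Ltf, the lactoferrin gene and a luminal marker of the list above, read 2142, 584 and 577. Tspan8 read 462, 62 and 50 and passed the floor only through tumour 1. For Krt18 the nearest were Slc15a4, Pwwp3a, Fastk, Hsd17b10 and Hspa5, but 17.9% of the 6952 genes lay within 0.25, so its flat pattern is a common one. For Krt7 they were Mmp16, Fxyd6, Notch4, Klf7 and Icam1, and for Krt19 Pml, Pxmp4, Tbc1d8, Tap1 and Git1. The mean of Notch4 (levels of 7.47, 8.80 and 7.09) passed the floor only through tumour 2. That of Pxmp4 (8.68, 7.70 and 7.07) passed it only through tumour 1. These 2 genes therefore had to be highest there. The range of Tap1 was 0.66 (log2) in place of 1.83 with the mean of its probe sets. Within 0.25 lay 26 genes for Krt7 and 30 for Krt19. A distance over 3 points, which share the arrays, describes these tumours only.

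Other cell types also differed between the tumours. Of the macrophage markers past the floor 8 of 8 were lowest in tumour 3, beside 44.2% of all genes past it, with summed intensities of 16671, 15490 and 7824, as were 5 of 8 fibroblast markers (12327, 12942 and 9649) and 4 of 4 endothelial markers (921, 1302 and 667). Adipocyte markers ran the other way, with 3 of 3 past the floor highest in tumour 3, 1 of them past it only there, and sums of 765, 680 and 4605. Skeletal muscle markers had sums of 545, 205 and 622, and the 2 past the floor were lowest in tumour 2, beside 27.2% of all genes. These were Acta1 (125, 39 and 300) and Mb (258, 94 and 118), each with a mean past the floor only through its brightest tumour. The sums cover all genes of a list on the array, past the floor or not. Of the endothelial markers below the floor, Pecam1 read 71, 64 and 87, Kdr 57, 82 and 75, and Tek 42, 83 and 33. Only Tek among them was lowest in tumour 3. No marker of these lists was at 0 in every tumour. The array of tumour 3 also differed in the control probe sets for 18S ribosomal RNA, with 9856, 9311 and 400 for the middle part and 5398, 4615 and 563 for the 5′ part, while the 3′ part was the other way, at 2697, 1833 and 7147. The 3′ to 5′ ratio of the Gapdh controls was 0.904, 1.21 and 0.809 and that of the actin controls 1.04, 1.21 and 1.26. For the dimmer transferrin receptor controls it was 7.63, 4.33 and 2.88, highest in tumour 1. The part of these differences in the low values of the simple keratins in tumour 3 was not tested.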

How the data were processed

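Total RNA of 3 mammary tumours was labelled as biotinylated cRNA, with 1 array per tumour, per the labels' protocols. Whole-number intensities were deposited, with 1 value for each probe set in each tumour. That their scale is linear was inferred from the values. The authors' summarisation, background subtraction, scaling and software were not given in the sources used here. Tumours were numbered in accession order.

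Of 22690 probe sets 64 were controls. Platform annotation named 1 gene for 20380, several for 691 and none for 1555. Arrays were quantile normalized over the 22626 others, 50 was added and log2 taken. Before this the array medians were 111, 120 and 114. The leading probe set of a gene, the brightest by mean level, stood for it in gene lists. The low-signal floor was the median of mean levels. No test exists with 1 group, and the small number of arrays limits precision. The calculation was tested on simulated data.

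Members and lists were chosen with earlier results of these data known. Named genes were all members, the 2 widest and the narrowest of each described list, Trp63, Epcam, Cdh1 and Vim, and the 5 genes nearest to Krt14 and Krt18. Those nearest to Krt7 and Krt19, and other named examples, were chosen after their values were seen. Alternatives were values as deposited, array medians subtracted, offsets of 16 and 100, other floors and probe set rules, and each tumour left out. Python 3.11.15, numpy 2.4.6, pandas 2.3.3 and matplotlib 3.10.9 were used.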

Additional observations from a re-analysis of the deposited data

How the results depend on the processing

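Krt7, Krt19 and both brighter Krt14 probe sets were at least 2-fold apart between highest and lowest tumour under every scaling and offset tried, with ranges of 1.73 to 1.86, 1.63 to 1.79, 1.66 to 2.57 and 1.26 to 2.32 (log2). The small ranges of the pair Krt8 and Krt18 depended on the scaling. As deposited they were 0.071 for Krt18 and 0.086 for the third Krt8 probe set, and with array medians subtracted 0.098 for Krt18 and 0.26 for the leading Krt8 probe set. Tumour 2 minus tumour 3, the widest pair of both leading probe sets after quantile normalization, was 0.061 for Krt18 as deposited, and with array medians subtracted 0.0095 for Krt18 and 0.21 for Krt8. The count of 4 keratin probe sets was 2 past the floor, 6 with an offset of 16 and 3 when genes were counted. The difference between Krt7 and Krt19 kept its sign under every scaling, offset and probe set rule in each pair of tumours.

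With each tumour left out in turn, ranges spanned 0.46 to 1.81 for Krt7, 0.71 to 1.72 for Krt19, 0.11 to 2.08 and 0.29 to 1.71 for Krt14, 0.11 to 0.46, 0.21 to 0.47 and 0.0084 to 0.22 for Krt8, and 0.10 to 0.26 for Krt18. The count of keratin probe sets spanned 1 (without tumour 1) to 4. List counts spanned 0 to 2 for other filaments, 1 to 4 for anchors, 1 to 4 for regulators and 1 to 4 for basal markers, and were 4 each time for luminal markers.

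Basal markers at least 2-fold apart numbered 3 with an offset of 100, when a gene's probe sets were averaged, or when IDs with a letter before their ending were left out, and 2 with a floor at the 75th percentile. That floor left 3 regulators and 1 other filament gene, and the mean of probe sets left 1. The causes were not tested. Dim keratins have no reliable order, and with 1 array per tumour a difference can include the preparation.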
